A study of Rattus norvegicus with 8 samples.

Results

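The AMPA receptor subunits (Gria1, Gria2, Gria3 and Gria4) and the transmembrane AMPA receptor regulatory proteins, or TARPs (Cacng2, Cacng3, Cacng4, Cacng5, Cacng7 and Cacng8), were followed in RNA of the hippocampal dentate gyrus (DG) of 8 seizured female rats. The members were the non-control spots of the arrays whose gene name is one of these 10 symbols, among 35250 names on the array, and 8 of the 10 were quantified in every rat, among 21372 names quantified. All rats were ovariectomized Sprague-Dawley females in which status epilepticus (SE) had been induced with kainic acid (16 mg/kg per the labels), a glutamate receptor agonist, so both groups had gone through seizures. The 4 COS rats received oil, and the 4 CES rats received β-estradiol (E2) in its place, given as estradiol benzoate (EB in the labels). The labels give 4 doses of 2 µg at 24 h intervals, 2 before and 2 after SE. The labels and the methods of the study differ on the kainic acid dose, on whether all E2 doses came before SE, and on when seizures ended and tissue was taken, and which account holds is not settled here. Rats without SE were not analysed here, so every value compares E2 with oil after SE and none shows what SE itself did. Ovariectomy removes the ovaries, the main source of estradiol, and no hormone level was analysed here.

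AMPA receptors are tetramers of GluA1 to GluA4, encoded by Gria1 to Gria4, and carry most of the fast excitatory current at glutamatergic synapses. The GluA2 subunit is edited in its RNA and makes the channel nearly impermeable to calcium, and each subunit exists in a flip and a flop form that differ in a short alternatively spliced segment and in the speed of desensitization. TARPs are relatives of a calcium channel gamma subunit that bind AMPA receptors, carry them to the synapse and slow their closing. In the hippocampus the receptors are expressed by pyramidal and granule cells and by many interneurons, and Cacng8 (γ-8) is known as the TARP most typical of this region.

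Each gene was read by 60-base oligonucleotide probes, whose place decides which part of the transcript a value stands for. Gria1 had a single probe, printed on 10 spots of each array, and 1 of the 3 Gria4 probes reads the corresponding place of its own transcript. Over the 52 bases in which these probes overlap, 36 bases are the same and 16 differ, and the capitals below mark the differing bases. The sequences are shown because this stretch belongs to the alternatively spliced segment. The Gria1 probe has the flop letters and the Gria4 probe the flip letters, so neither probe matches all splice forms of its gene. Whether either probe binds only 1 form of its gene was not tested.
Gria1, base 2462 of its transcript: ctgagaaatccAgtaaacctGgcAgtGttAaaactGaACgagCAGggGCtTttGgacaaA
Gria4, base 2747 of its transcript, chr8:963017-963076 (rn4, minus strand): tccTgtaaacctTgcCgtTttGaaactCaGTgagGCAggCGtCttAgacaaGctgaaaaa
The files give no rn4 position for the Gria1 probe. A further Gria4 probe begins at base 3005, at chr8:957385-957444 on the minus strand, in the part that encodes the carboxy-terminal tail of the long form. It is shown because its value differed from that of the flip probe, as described further on.
Gria4, base 3005 of its transcript: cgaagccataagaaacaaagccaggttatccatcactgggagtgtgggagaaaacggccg
The remaining Gria4 probe lies at chr8:956714-956773 on the opposite strand of the genome from the others. Both Gria2 probes (chr2:172266587-172266646 and chr2:172266889-172266948, minus strand) begin at bases 5253 and 4951 of the transcript, in its 3′ untranslated region, as does the Gria3 probe at base 4932 (chrX:3452571-3452630). The other Gria3 probe, at chrX:3459714-3459773, lies in the coding part. They do not tell splice or editing forms of Gria2 apart.

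The CES rat of replicate 2 stood apart from its group. Over all quantified genes its log2 levels correlated with those of the COS rats at r of 0.974 to 0.983 and with those of the other CES rats at 0.955 to 0.964, while CES rats 1, 3 and 4 correlated with each other at 0.977 to 0.989 and with the COS rats at 0.933 to 0.944. These are correlations across genes, which are not independent replicates. Its label was kept. Results without this rat are given for the subunits, the count of members passing, the pairs of members and some gene lists. Most other values include it.

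All 4 AMPA receptor subunits were higher in the CES than in the COS rats. The levels are log2 of the background-subtracted signal over the median valid spot of the same dye on the same array, and a level of one gene cannot be set against that of another because probes bind with different strength. Gria2 had the largest difference of the 8 quantified members, and Gria3 the smallest of the 4 subunits.

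Gria2, which encodes the subunit that limits calcium entry, was at 2.80, 2.25, 3.13 and 2.39 in COS rats 1 to 4. It was at 4.81, 3.60, 4.93 and 4.76 in CES rats 1 to 4. The groups did not overlap, and the lowest CES rat, replicate 2, still lay 0.46 above the highest COS rat. The COS rats averaged 2.64 ± 0.40 (SD, n = 4), and for the CES rats this was 4.53 ± 0.62 (SD, n = 4). The difference of 1.88 (SE 0.24), a 3.69-fold higher signal, had a limma adjusted p of 0.00341, and the exact permutation p was 0.0286, the smallest that 4 against 4 rats can give. Among all genes, 0.206% had a higher difference.

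Gria1, which encodes the subunit most tied to activity-dependent insertion at synapses, was at 2.10, 1.96, 1.99 and 0.94 in the COS rats. It was at 3.32, 2.02, 3.51 and 2.84 in the CES rats. The groups overlapped, because CES replicate 2 lay below COS replicate 1, and COS replicate 4 stood far below the other COS rats. The difference was 1.17 (SE 0.26), a 2.26-fold higher signal with a limma adjusted p of 0.00959, while the exact permutation p was 0.0571.

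Gria4, whose subunit has fast kinetics, was at 1.44, 1.24, 1.66 and 0.85 in the COS rats and at 2.60, 1.56, 2.72 and 2.30 in the CES rats. Again only CES replicate 2 fell within the range of the COS rats. The difference was 0.99 (SE 0.20), a 1.99-fold higher signal, with a limma adjusted p of 0.00693 and an exact permutation p of 0.0571.

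Gria3, the X-linked subunit gene, was at 3.85, 3.68, 4.24 and 3.68 in the COS rats and at 4.66, 4.27, 4.81 and 4.69 in the CES rats. The groups did not overlap, although the lowest CES rat was only 0.03 above the highest COS rat. The difference was 0.75 (SE 0.17), a 1.68-fold higher signal, with a limma adjusted p of 0.0108 and an exact permutation p of 0.0286.

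**Figure D1:**
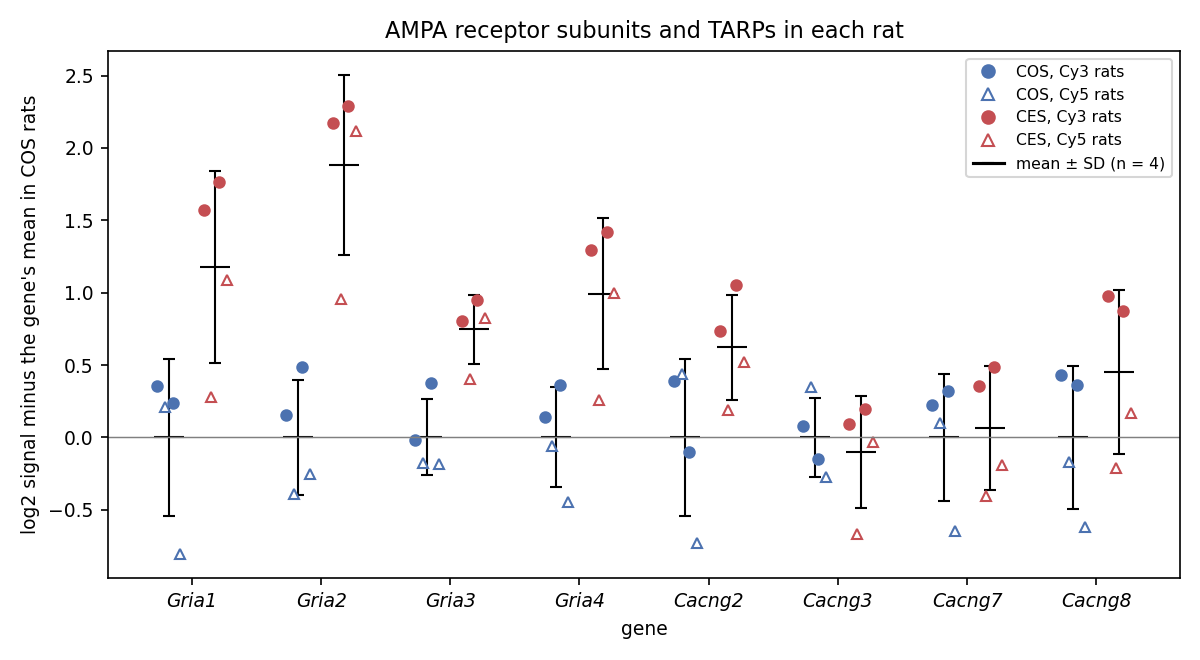
Log2 signal of the 8 quantified members in each rat, minus the mean of the gene in the 4 COS rats. Points are rats (filled for Cy3, open for Cy5), and the bars give the mean ± SD (n = 4); the CES rats lie highest for Gria2, with a mean difference of 1.88, and CES replicate 2 is the lowest CES rat for all 4 Gria genes.

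Of the 8 quantified members, 4 passed an adjusted p of 0.05 as higher, all of them Gria genes, and 0 passed as lower. At an unadjusted p under 0.05, 6 were higher and 0 lower, against 8.66% and 36.5% of all genes. Of all 21372 genes, 34.1% passed in either direction, 5.79% (1238) as higher and 28.3% (6054) as lower. Gria2 and Gria3 were the 2 members with groups that did not overlap, both with CES higher, as held for 1.61% of all genes, and no member had non-overlapping groups with CES lower, against 19.8% of all genes. The median difference was 1.08 over the 4 subunits, 0.69 over the 8 members and −0.25 over all genes. Relative to that median of all genes, the differences were 2.14 for Gria2, 1.43 for Gria1, 1.25 for Gria4 and 1.00 for Gria3. The balance of higher and lower genes depended on the scaling: when the scaling median was taken over a common set of spots, those valid in every rat, 3352 genes (15.7%) passed as higher and 1720 as lower, the median of all genes was 0.15, and the subunits differed by 1.15 to 2.28.

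Each dye held 2 rats of each group. In the Cy3 rats alone the difference was 1.91 for Gria2, 1.37 for Gria1, 1.10 for Gria4 and 0.70 for Gria3, and all but that of Gria3 had a limma adjusted p below 0.05, as 3.51% of all genes did as higher. In the Cy5 rats alone the differences were 1.86, 0.98, 0.88 and 0.80 in the same order, and no member passed. Among all genes, 0 (0%) passed as higher and 2 as lower in these rats. Without COS replicate 3, 2 members passed in place of 4, since Gria1 (limma adjusted p = 0.0669) and Gria4 (limma adjusted p = 0.0526) no longer did, with differences of 1.15 and 1.03, and 1.23% of all genes passed as higher. Without CES replicate 2 the differences were 2.12 for Gria2, 1.38 for Gria1, 1.16 for Gria4 and 0.82 for Gria3. Then 5 members passed as higher, the fifth being Cacng8, and so did 8.7% of all genes.

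Markers of CA pyramidal cells, the neurons of the neighbouring hippocampal fields, moved with the subunits. Of the 5 markers on the list, 4 passed as higher in CES and 0 as lower, beside 5.79% and 28.3% of all genes. Neurod6, a transcription factor of pyramidal neurons, was at 3.31 to 3.91 in the COS rats and at 4.71 to 5.88 in the CES rats, a difference of 1.90 (SE 0.23, limma adjusted p = 0.0032). Pou3f1 was higher by 2.23 (SE 0.29, limma adjusted p = 0.00341). Fibcd1 passed as higher (limma adjusted p = 0.0135), but it was well above background in no COS rat and in only 2 CES rats. Its call thus rests on signals near background, and no fold is given. Wfs1, named after its values were seen because it was the fourth of the list, differed by 0.98 (limma adjusted p = 0.00957). None of the 5 was at 0. The log2 of their summed signal ran from 3.94 to 4.43 in COS and from 5.07 to 6.29 in CES. This sum mostly reflects the brightest probe, that of Neurod6. The mean log2 level of the 5 relative to all genes was −0.71, −0.92, −0.59 and −1.05 in COS rats 1 to 4 and 0.96, 0.03, 0.99 and 0.96 in CES rats 1 to 4. The mean of the 4 subunits on the same scale lay between 1.36 and 1.45 for COS and between 2.32 and 3.28 for CES, and CES replicate 2 was the lowest CES rat in both lists. The number of these markers passing as higher was also 4 without CES replicate 2, beside 8.7% of all genes. Over 6 other scalings it was 2 to 4. It was 2 with normexp background correction, beside 126 of 21372 genes, and 4 with scaling over the common set of spots, beside 15.7%. The part of pyramidal cells in the higher AMPA receptor signal was not tested. In RNA of a whole tissue, the number of cells of a type that a sample held, whatever its reason, and the RNA per cell cannot be told apart.

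The markers of granule cells, the principal neurons of the DG, moved in both directions. Neurod1 rose by 1.16 (SE 0.21, limma adjusted p = 0.00515), C1ql2 fell by 1.23 (SE 0.28, limma adjusted p = 0.0104), Calb1 differed by −0.28 (limma adjusted p = 0.376), and the probe of Prox1, the defining transcription factor of granule cells, was not well above background in any rat. The log2 of the summed signal of the 3 quantified granule cell markers ran from 3.95 to 4.82 in COS and from 4.21 to 4.62 in CES. Of the other marker lists, general neuronal genes had 2 higher and 1 lower of 6, interneurons 0 and 2 of 6, astrocytes 3 and 1 of 6, microglia 1 and 3 of 7, oligodendrocyte precursors 0 and 1 of 3 and endothelium 0 and 3 of 4, beside 5.79% and 28.3% of all genes. Scaled over the common set of spots, none of the microglia, astrocyte, oligodendrocyte precursor and endothelium genes passed as lower. Oligodendrocytes (7) and choroid plexus (6) had no gene that passed in either direction, nor at an unadjusted p under 0.05. Without CES replicate 2, 1 oligodendrocyte gene passed as higher, beside 8.7% of all genes. Choroid plexus genes passed as lower without COS replicate 4 and in the Cy3 rats alone. They varied widely between rats: Ttr ran from 3.57 to 9.22 in COS and from 3.80 to 7.55 in CES, a difference of 0.52 (SE 0.99). Such a spread can hide a difference between groups. The part of these cell types in the AMPA receptor values was likewise not tested.

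**Figure D2:**
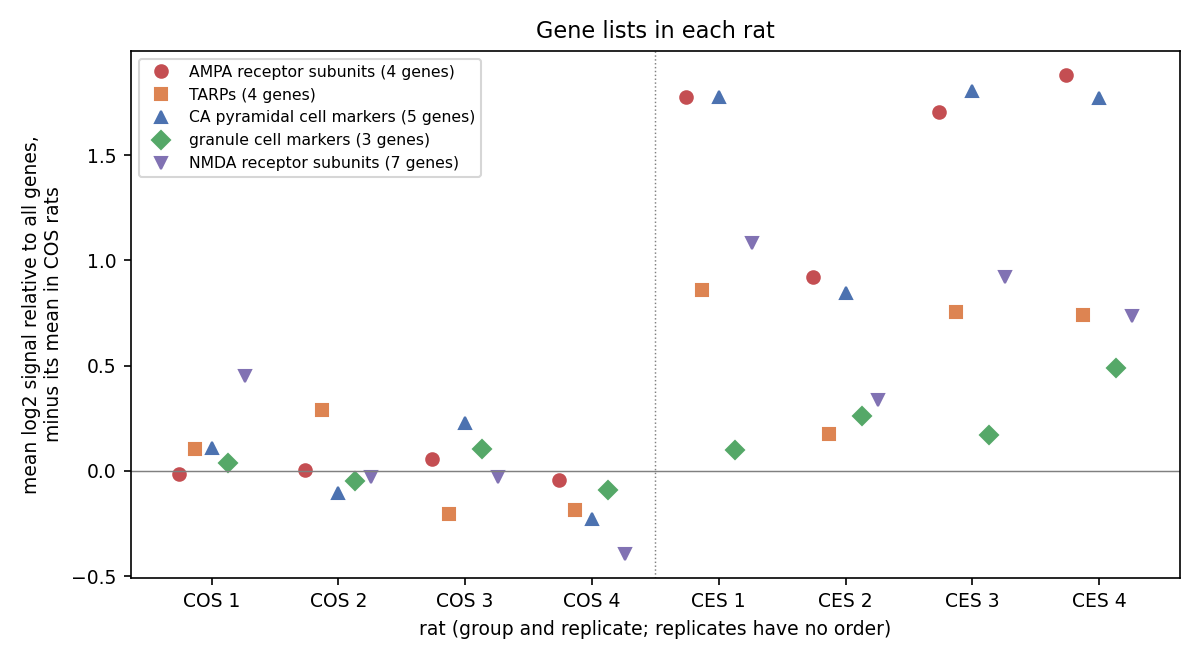
Mean log2 signal of 5 gene lists in each rat, relative to the median gene of the rat and then to the COS mean. Each point is 1 list in 1 rat; the AMPA receptor subunits and the CA pyramidal cell markers lie close together in each CES rat, with CES replicate 2 lower than the other CES rats in both, and replicates have no order.

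The probes of a gene were then taken apart. In a fit of the 25698 probes valid in all rats, 5.48% of all probes passed as higher. The Gria2 probes at bases 5253 and 4951 differed by 1.91 (SE 0.24) and 1.88 (SE 0.24), each without overlap between the groups, and the log2 ratio of the 2 probes within a rat changed by 0.03 (exact permutation p = 0.371). The Gria3 probes at bases 2649 and 4932 differed by 0.91 (limma adjusted p = 0.00633) and 0.73 (limma adjusted p = 0.0124), and their ratio changed by 0.19 (exact permutation p = 0.371). For both genes the probes were not separated beyond the spread between rats.

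The Gria4 probes gave less similar values. The flip probe at base 2747 was at 2.07, 1.89, 2.26 and 1.53 in the COS rats and at 3.33, 2.31, 3.47 and 3.08 in the CES rats, a difference of 1.11 (SE 0.20, limma adjusted p = 0.00517) without overlap. The probe at base 3005 was at 0.30, 0.04, 0.61 and −0.48 in the COS rats and at 1.05, −0.09, 1.05 and 0.44 in the CES rats, a difference of 0.49 (SE 0.19, limma adjusted p = 0.0744) with overlap. The log2 ratio of the flip probe to the other averaged 1.82 ± 0.15 (SD, n = 4) for the COS rats, against 2.44 ± 0.15 (SD, n = 4) for the CES rats, a change of 0.62. The ratios did not overlap (1.65 to 2.01 in COS and 2.28 to 2.64 in CES), with an exact permutation p of 0.0286, the smallest possible. After adjustment over the 3 genes with 2 valid probes this p was 0.0858. Gria4 could not have passed that adjustment alone, since the other genes were not at the smallest possible p. The Gria4 ratio was computed after the values of the probes were seen. The Gria4 probe on the opposite strand was not well above background in any rat, with a foreground of 1.16 to 2.70 times the background, and gave no value.

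**Figure D3:**
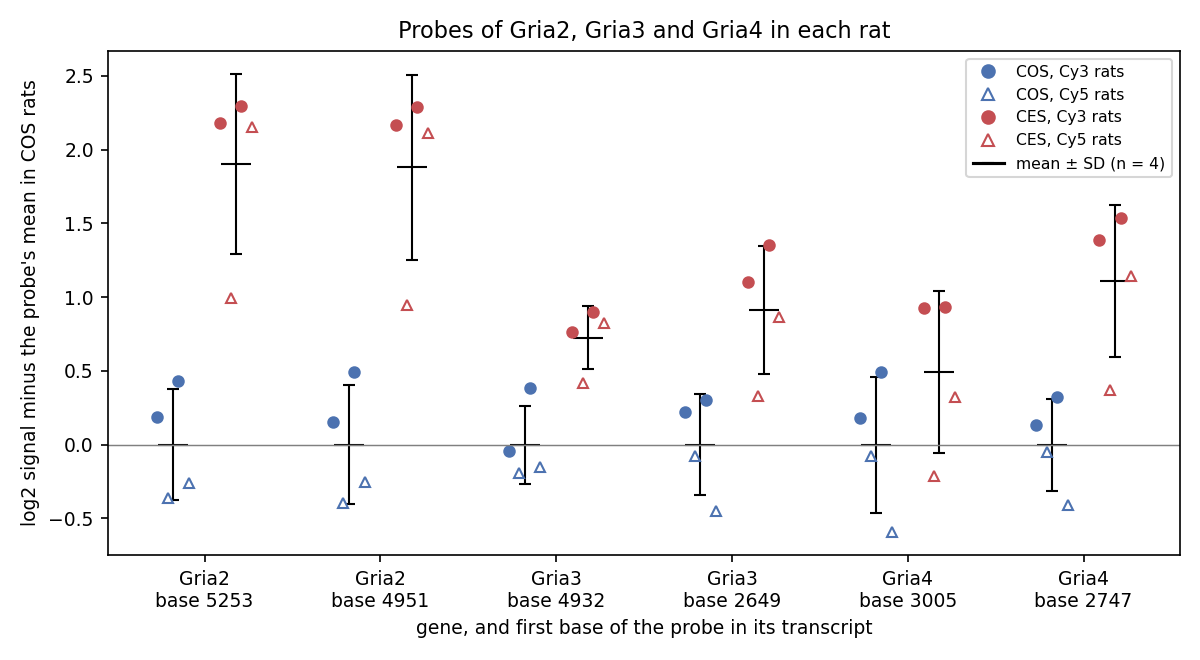
Log2 signal of the 6 valid probes of Gria2, Gria3 and Gria4 in each rat, minus the mean of the probe in the 4 COS rats; the axis gives the first base of the probe in its transcript. Bars are mean ± SD (n = 4), and the Gria4 probe at base 2747 differed by 1.11 against 0.49 for the probe at base 3005.

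The 10 spots of the Gria1 probe and of the Gria2 probe at base 4951 show the spread between spots of one channel, which leaves out the error of labelling and hybridization. Within a channel, the SD over these spots was 0.17 to 0.29 for Gria1 and 0.19 to 0.39 for Gria2 on the log2 scale. The level of a rat is a mean over these spots. The SD of that level between rats was 0.54 in COS and 0.66 in CES for Gria1, and 0.40 and 0.62 for Gria2.

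None of the TARPs passed as higher or lower, while Cacng2 and Cacng8 were higher at an unadjusted p under 0.05. The probes of Cacng2 and Cacng8 cross a splice junction, as their rn4 positions span 107327 and 2733 bases of the genome, and are printed because such probes read spliced transcripts.
Cacng2, base 220 of its transcript, chr7:115930348-116037674 (rn4): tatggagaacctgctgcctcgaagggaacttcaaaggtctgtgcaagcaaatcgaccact
Cacng8, base 451 of its transcript, chr1:64069079-64071811 (rn4): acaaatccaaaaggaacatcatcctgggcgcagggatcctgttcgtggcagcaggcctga
The other TARP probes have unbroken positions, that of Cacng3 at chr1:181593809-181593868, Cacng7 at chr1:64114273-64114332, Cacng4 at chr10:97139702-97139761 and Cacng5 at chr10:97301189-97301248.

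Cacng2 encodes stargazin (γ-2), the founding TARP, which brings AMPA receptors to the synaptic membrane. It was at 2.85, 2.90, 2.37 and 1.73 in the COS rats and at 3.20, 2.65, 3.52 and 2.98 in the CES rats. COS rats 1 and 2 lay above the lowest CES rat, and the difference of 0.62 (SE 0.26) had a limma adjusted p of 0.0891.

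Cacng8 was at 0.37, −0.23, 0.30 and −0.68 in the COS rats and at 0.91, −0.27, 0.81 and 0.11 in the CES rats. The groups overlapped, and the difference of 0.45 (SE 0.17) had a limma adjusted p of 0.0668. Both Cacng2 and Cacng8 passed when channels were scaled over the common set of spots (1.02 and 0.85, with limma adjusted p of 0.0316 and 0.0277).

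Cacng3 (γ-3), a close relative of Cacng2, was at 2.63, 2.90, 2.40 and 2.28 in the COS rats and at 2.65, 1.89, 2.75 and 2.52 in the CES rats. It differed by −0.10 (SE 0.22, limma adjusted p = 0.749), a value whose sign turned with the scaling, to 0.28 after loess and 0.30 with scaling over the common set of spots.

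Cacng7 (γ-7), a TARP of the type that acts more weakly on receptor transport, was at −0.35, −0.47, −0.25 and −1.22 in the COS rats and at −0.22, −0.98, −0.09 and −0.77 in the CES rats. It differed by 0.06 (SE 0.19, limma adjusted p = 0.827), and it was well above background in 3 of 4 COS and 4 of 4 CES rats.

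Cacng4 (γ-4), which is most abundant in the developing brain, and Cacng5 (γ-5) were not quantified. For Cacng4 the foreground was 3.30, 3.43, 2.48 and 2.19 times the background in the COS rats and 1.97, 1.97, 1.91 and 1.81 times in the CES rats. Its spot thus reached the limit of 2 times background in 4 of 4 COS and 0 of 4 CES rats, but it was not well above background in any rat, and no fold is given. For Cacng5 the foreground was 1.47 to 2.22 times the background, and it reached the limit in 1 COS and 1 CES rat.

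**Figure D4:**
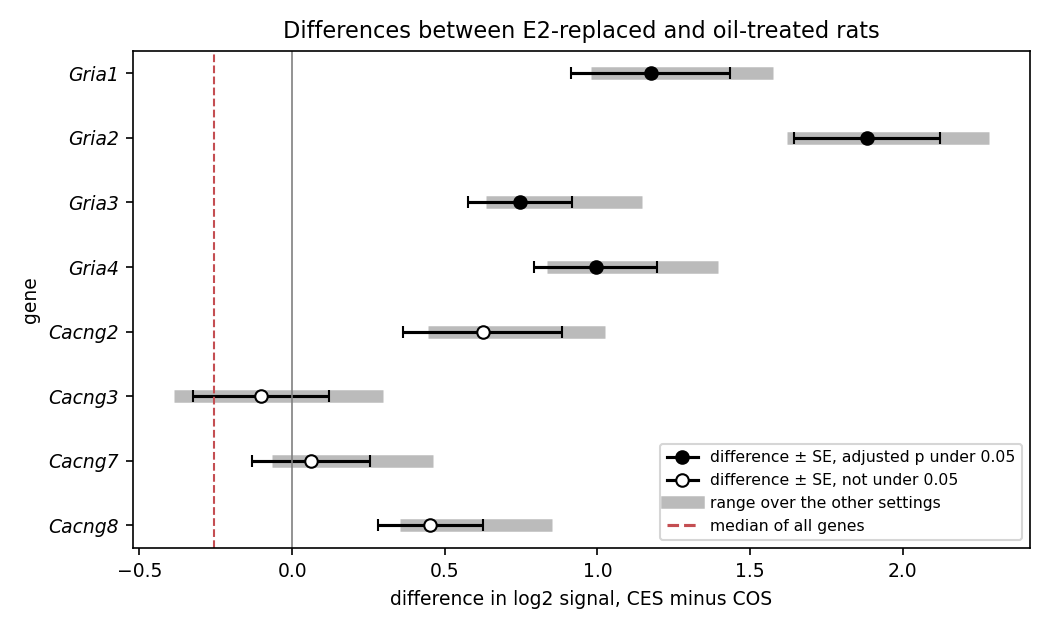
CES minus COS difference in log2 signal for the 8 quantified members. Points and bars are the difference ± SE (filled where the limma adjusted p is under 0.05), grey bars the range over the other settings tried, and the dashed line the median of all genes at −0.25; the 4 Gria genes stay above 0.63 throughout and the grey bar of Cacng3 crosses 0.

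Whether members changed by unequal amounts was tested on their log2 ratio within each rat, from which any constant scaling of a channel cancels; loess and quantile normalization can still change it. Of 12 pairs chosen among Gria1 to Gria4 and among Cacng2, Cacng3, Cacng4 and Cacng8, 9 could be tested, since Cacng4 gave no value. The change of Gria2 exceeded that of Gria3 by 1.14, with ratios of −1.43 to −1.05 in the COS rats and −0.67 to 0.15 in the CES rats. It also exceeded that of Gria4 by 0.89, and Cacng2 exceeded that of Cacng3 by 0.73. In these 3 pairs the rats did not overlap, and each had an exact permutation p of 0.0286, the smallest possible. The adjusted p was 0.0857 over the 9 pairs, so no pair passed after adjustment. With only 3 of the 9 pairs at the smallest possible p, none could have passed, whatever the size of its change. The change of Gria1 less that of Gria2 was −0.71 (exact permutation p = 0.0571, adjusted p = 0.129). The remaining 5 pairs differed by −0.56 to 0.43, with exact permutation p from 0.143 to 0.514. Without CES replicate 2 no pair passed after adjustment either, with fewer rats to compare. Neither outcome shows that the members changed by equal amounts.

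The genes around the AMPA receptor were taken from lists of its other partners. Of 17 genes for other auxiliary and assembly proteins, 11 were matched by name and quantified. Of these, 3 passed as higher and 0 as lower, beside 5.79% and 28.3% of all genes. The median difference of the 11 was 0.33. Cnih2 encodes cornichon 2, an auxiliary subunit that slows the channel. It was at 4.53, 4.53, 4.59 and 4.10 in the COS rats and at 5.66, 4.61, 6.14 and 5.69 in the CES rats, without overlap, and differed by 1.09 (SE 0.26, limma adjusted p = 0.0119). Olfm3 and Olfm1, secreted olfactomedins found in AMPA receptor complexes, differed by 0.83 (limma adjusted p = 0.0345) and 0.72 (limma adjusted p = 0.0239). The remaining 8 did not pass. Over 6 other scalings 0 to 7 of the list passed as higher, with a median of 0.37 to 0.74. The share of all genes moved as well. With normexp 0 of the list passed as higher, beside 126 of 21372 genes. With scaling over the common set of spots 7 did, beside 15.7% of all genes. Without CES replicate 2 the counts were 5 higher and 2 lower, beside 8.7% of all genes as higher.

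Among 26 quantified genes of trafficking and anchoring, 2 passed as higher and 7 as lower, with a median difference of −0.18. Of all genes, 5.79% passed as higher and 28.3% as lower, with a median of −0.25. The counts of this list thus lie near the shares of all genes. Akap5, which anchors kinases and a phosphatase at the receptor, rose by 1.19 (SE 0.32, limma adjusted p = 0.0187). Nptx1, a neuronal pentraxin that clusters AMPA receptors, rose by 0.86 (SE 0.21, limma adjusted p = 0.0143). Its activity-regulated relative Nptx2 went the other way. Nptx2 was at 6.31, 6.89, 7.17 and 6.47 in the COS rats and at 3.77, 6.09, 4.84 and 4.38 in the CES rats, without overlap, and fell by 1.94 (SE 0.41, limma adjusted p = 0.00816). Arc, an immediate early gene whose protein drives AMPA receptor endocytosis, fell by 1.28 (SE 0.31, limma adjusted p = 0.0125), and Rab8a, a small GTPase of delivery to the membrane, by 0.82 (SE 0.16, limma adjusted p = 0.00614). The number passing as lower ran from 0 to 7 and as higher from 0 to 5 over 6 other scalings. With scaling over the common set of spots 5 passed as higher, beside 15.7% of all genes. With normexp 0 did, beside 126 of 21372 genes.

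Of 14 quantified genes of receptor phosphorylation and RNA editing, 3 passed as higher and 0 as lower, with a median of 0.01. Of all genes, 5.79% passed as higher and 28.3% as lower. Among the 3 were the kinase gene Camk2a (0.92, SE 0.27, limma adjusted p = 0.0256) and the calcineurin gene Ppp3ca (0.78, SE 0.19, limma adjusted p = 0.0134). Over 6 other scalings 0 to 6 of the list passed as higher. With normexp it was 0, beside 126 of 21372 genes, and with scaling over the common set of spots 6, beside 15.7% of all genes. The direction of each gene named from these lists was the same in all 27 other settings, and each lost its call in some of them. The gamma subunits that are not TARPs had 1 of 2 genes quantified, Cacng1, and it did not pass.

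For comparison with the other ionotropic glutamate receptors, 2 of 7 NMDA receptor genes and 1 of 4 quantified kainate receptor genes passed as higher, and none as lower, also at an unadjusted p under 0.05. Their median differences were 0.26 and 0.48, beside 1.08 for the AMPA receptor subunits. The shares of all genes that passed were 5.79% as higher and 28.3% as lower. Grin2a was at 0.80, 0.65, 0.54 and −0.41 in the COS rats and at 2.15, 1.00, 2.15 and 1.34 in the CES rats, and differed by 1.27 (SE 0.24, limma adjusted p = 0.00579). Grin2c differed by 1.24 (SE 0.20, limma adjusted p = 0.00417), and Grik4 by 0.69 (SE 0.20, limma adjusted p = 0.0252). Over 6 other scalings 1 to 4 NMDA and 0 to 2 kainate receptor genes passed as higher. With normexp these counts were 1 and 0, beside 126 of 21372 genes. With scaling over the common set of spots they were 4 and 2, beside 15.7% of all genes. Without CES replicate 2 they were 2 and 4, beside 8.7% of all genes.

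The genes with the profile most like that of each subunit over the 8 rats were found by the root mean square (RMS) difference of log2 levels, each centred on its mean, and this likeness is a description. For Gria2 the nearest gene was Neurod6 (RMS 0.137), followed at more distance by Sidt1 (0.172). For Gria1 it was Grin2a (0.141), with Rhbdl1 at 0.154. For Gria3 it was Necab3 (0.0593). For Gria4 it was Fzd9 (0.0666), with Itpr1 at 0.0824. The other 5 were transcripts that the files name only by an identifier. Among the members, Gria1 and Gria4 were the closest pair of subunits (RMS 0.223) and Gria2 and Gria3 the farthest (0.626).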

How the data were processed

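RNA of 8 rats was hybridized on 4 2-colour Agilent arrays (4 rats per group), each array holding 2 rats of 1 group, labelled Cy3 and Cy5, so array and group are nested. The deposited scanner files (Agilent Feature Extraction 10.7.3.1) hold the intensity of each spot and its local background before normalization by the authors; the authors also deposited a log2 table, used as an alternative, which is the log2 median signal minus background, centred per column. Each file was read in its sample's own channel. Genes were named through RefSeq where the accession matched, otherwise by the file; probe positions are rn4 as the files give them, and sequences are those of the array design.

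A spot was valid at a foreground of at least 2 times background. Between 30690 and 38553 of 43379 spots were valid per rat and none was saturated; the number of arrays limits the precision (median SE 0.20). Mean signal minus background median was scaled by the median valid spot of the channel, averaged over a gene's spots if valid in every rat, and log2 was taken. Groups were compared by two-sided limma tests (version 3.58.1 in R 4.3.3), fitting dye as a fixed and array as a random effect (block correlation −0.01), and p-values were adjusted after Benjamini-Hochberg over all genes. Single ratios were tested by two-sided exact permutation. Same-numbered rats share a dye: their deviations correlated at 0.21 to 0.34, and at −0.28 to 0.08 once the dye was removed, so the numbers were not taken to pair rats.

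The members and gene lists were chosen with earlier results of these data known. Named were all members, up to 3 genes per direction of each other list with the largest difference, and the 3 genes nearest each subunit, apart from some genes not reported here. The alternatives were background correction, scaling, filter, dye, array, probe choice, naming, the methods' t-test and leaving out each rat; leaving out the array of CES replicates 1 and 2, and differences relative to all genes, were added after seeing the data.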

Additional observations from a re-analysis of the deposited data

Results flagged for a closer look

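Each of the 8 quantified members was checked in each group for a rat far from the others, and 2 of the 16 groups had one, where chance marks about 1 in 20. Gria1 in COS replicate 4 was at 0.9433, below the 1.96 to 2.10 of the other COS rats, and the gap took 0.877 of the range of the group. Gria2 in CES replicate 2 was at 3.5962, below the 4.76 to 4.93 of the other CES rats, and the gap took 0.871 of the range. Without COS replicate 4 the difference of Gria1 was 1.03 (limma adjusted p = 0.0374), and without CES replicate 2 that of Gria2 was 2.12 (limma adjusted p = 2.71e-05). CES replicate 2 also correlated more with the COS rats than with the other CES rats over all genes. The cause was not tested.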

How the results depend on the processing

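The differences of Gria1 to Gria4 kept their direction in all 27 other settings, at 0.98 to 1.57, 1.62 to 2.28, 0.63 to 1.15 and 0.84 to 1.39, and passed in 23, 25, 22 and 23 of them. The number of members passing as higher was 4, but 1 after normexp background correction (126 of all genes) and 0 in the Cy5 rats alone. It was also 0 by the methods' t-test once adjusted over all genes as done here. That t-test put 4 members and 6114 genes under an unadjusted p of 0.05, and none after the adjustment. The methods themselves describe a correction for redundant spots of a gene and a fold cut-off, not an adjustment over all genes. Leaving out each rat gave 2 (without COS replicate 3) to 5 members passing. It was 6 after loess, quantile or common-spot scaling and in the deposited log2 table, with Cacng2 and Cacng8 added, and also 6 of 7 quantified members when all rats had to be well above background; it was 5 with the processed signal and 3 without a filter on valid spots. Over all genes, 3045 passed as higher and 1896 as lower after loess, against 1238 and 6054. With a replicate block in place of dye and array the number was 4, and the block changed no member's call. Cacng3 changed sign, to 0.0519 after normexp, 0.00576 with the processed signal, 0.28 after loess, 0.266 after quantile scaling, 0.016 at 3 times background, 0.297 with common-spot scaling, 0.182 in the Cy3 rats, 0.242 in the deposited table, 0.0800 without the array of CES replicates 1 and 2 and 0.152 relative to all genes, and ran from −0.216 to 0.0807 leaving out each rat. Cacng7 was −0.0259 in the Cy5 rats and ran from −0.0654 to 0.229 leaving out each rat, and the change of Cacng2 over Cacng8 was −0.0893 with the processed signal. The causes were not tested. Signal near background limits Cacng4 and Cacng5, which gave no value at the main filter.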
